A study of Caenorhabditis elegans with 66 samples.

Results

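The 100 piRNAs described here are those that are most abundant in adult hermaphrodites among the piRNAs that rise between the L4 larval stage and adulthood in Caenorhabditis elegans. They were chosen by measured values. In 12 wild-type small RNA libraries (6 at 48 h and 6 at 72 h), the level of each piRNA was its count divided by the library's summed piRNA counts and scaled to 1000000 (CPM), piRNAs with a 72 h mean at least 4 times the 48 h mean were kept, 21ur-7611 and 21ur-5504 were set aside, and the 100 with the highest 72 h mean were taken. They are 100 of 17114 piRNAs in the deposited count table and of 1770 that met the fold limit. Their age difference in those 12 libraries is therefore a description and was not tested.

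piRNAs of this species are short RNAs that mostly begin with uridine, are bound by the Argonaute protein PRG-1 and guide it to target RNAs in the germline. Most are transcribed as separate small units from clusters on chromosome IV by a machinery related to the snRNA-activating protein complex. Hermaphrodites make sperm during the L4 stage and then switch to oocytes, and different sets of piRNAs are known from male and female germlines. snpc-1.2 and snpc-1.3 encode relatives of the SNAPC1 subunit of that complex, and SNPC-1.3 is known from earlier work as a factor for male piRNAs. mut-16 encodes a scaffold protein needed to amplify secondary small RNAs, and hrde-1 encodes a nuclear Argonaute that binds such secondary RNAs.

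Whole animals were collected at 48 h as L4 larvae or at 72 h as gravid adults, and 3 libraries were made per genotype and age from RNA treated with 5′ polyphosphatase, which opens triphosphorylated ends to cloning. Set A held wild type (N2) and both single mutants, snpc-1.2(-) and snpc-1.3(-). In set B were N2, the mutant of both genes, written snpc-1.2(-); snpc-1.3(-), and the mutants prg-1(-), mut-16(-) and hrde-1(-). Of a further set, called set C here, only N2 was analysed. The labels name no alleles and do not say whether replicates came from separate cultures, so the p-values measure the spread between these libraries, which may be technical. Whole animals were sampled, so fewer germ cells and less piRNA per germ cell cannot be told apart.

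Summed piRNA counts differed widely, the lowest being 3167 (prg-1 at 48 h) and the highest 2276260 (mut-16 at 72 h). The table holds piRNA counts only, so neither the protein-coding genes that were mutated nor markers of other cells were measured. In the libraries labelled prg-1 at 48 h the summed piRNA counts were 8209, 3167 and 8885, against 938338, 798768 and 865319 in wild type of the same set and age. N2 replicate 3 of set C at 72 h stood apart from its group, with 9912 piRNA counts where the other two had 740102 and 318641, and 38 members above 0 where the other two had 100. Counts of calls that rest on it are given with and without it.

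The members spanned a wide range of abundance. In wild type of sets A and B their mean level at 72 h ran from 269 CPM to 6665 CPM with a median of 653 CPM, and at 48 h from 27.0 CPM to 1398 CPM with a median of 143 CPM. The ratio of the means ran from 4.00 to 10.7 with a median of 4.63. Just inside the fold limit lay 21ur-913 with a ratio of 4.001 and 21ur-757 with 4.002, and just outside it 21ur-1018 with 3.99 and 21ur-4895 with 3.99. The last members by rank were novel_21ur-1408 at 268.9 CPM and 21ur-5890 at 268.9 CPM, and the next piRNAs, 21ur-2760 at 262 CPM and 21ur-2364 at 259 CPM, were left out. The 10 leading members held 40.2% of the summed member level at 72 h and 4.84% of all piRNA counts in those libraries.

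The sequences of the 10 leading members are printed because they have the highest levels, with those of the 3 members whose pattern over the 18 groups was least like that of the others (novel_21ur-0997, 21ur-8966 and 21ur-3291) and of 4 members whose counts are not independent. All are written 5′ to 3′ as DNA, as the deposited table gives them. Capitals mark bases 2 to 8, the stretch known as the seed.
21ur-3363: tCGATGGCtatgtggactatt
21ur-5410: tCTTTTTGgagtgtggtcatc
21ur-3975: tCGCGTTTgtgatctcttctt
21ur-6009: tCTTGTTGgatttcttcaatt
21ur-2290: tAGGATCTctgctctgttgag
21ur-172: tCCTGTTTtgaatcggctgca
21ur-7174: tTTTCTCGtctcaattacttg
21ur-119: tGGGTTTAggcgataatgact
21ur-3788: tGCGACACcgataagagaaca
21ur-5323: tTTGCTGTtctctgagttatc
novel_21ur-0997: tTACCGACtagtgaaaatctt
21ur-8966: tTGAGCTCgccgatttctctc
21ur-3291: tGCTTGTTtctgccgctcttt
21ur-2108: tAGCCTCCaagaacattgact
novel_21ur-1262: tAGCCTCCaagaacattgact
21ur-4319: cTATCTCCggaaaatctgcag
novel_21ur-1433: tATCTCCGgaaaatctgcagg
No 2 of the 10 leading members share bases 2 to 8. Over all members 3 pairs share them. One of these pairs, 21ur-2108 and novel_21ur-1262, has the same 21 bases at a pair of loci (IV:16344081-16344101, plus strand, and IV:16339763-16339783, minus strand), each antisense to an exon of a gene that the annotation names srh-228. Their 72 h means were both 824 CPM, and by sequence their reads cannot be assigned to either locus. The other pairs differ outside the seed: 21ur-1404 and 21ur-3471 share TGAACTG, and 21ur-5614 and 21ur-5890 share TTAAAGA.

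Reads were also shared between overlapping loci. novel_21ur-1433 starts 1 base after 21ur-4319 on the plus strand of chromosome IV, and the counts of the pair were equal in 48 of 54 libraries (55944 and 55935 counts in all). 21ur-4319 is the only member that does not begin with T, and the overlapping locus 1 base downstream does. 21ur-2983 and novel_21ur-1408 are offset by 1 base too and had 5383 and 5289 counts in all. Counting 1 member per group of overlapping loci leaves 95 members, and 59 members overlap some listed piRNA on the same strand. Values of these members cannot be assigned to 1 locus with certainty.

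All 100 members lie on chromosome IV (WBcel235), where 89.1% of the 8512 piRNAs tested lie. Of the members 98 lie between 13 Mb and 18 Mb, against 71.3% of the piRNAs tested, and 2 lie between 4.5 Mb and 7 Mb (21ur-8984 at IV:4947858-4947878, minus strand, and 21ur-2348 at IV:6058266-6058286, plus strand), against 15.5% of the piRNAs tested. A list made by the mirrored rule, the 100 most abundant piRNAs with a 48 h mean at least 4 times the 72 h mean, was placed much the same, with 95 in the first region and 5 in the second. The members were spread along the large cluster, with a median distance of 23156 bases between neighbours. There were 44 on the plus strand and 56 on the minus strand. In the annotation, leaving out piRNA genes, 61 members overlapped no gene, 33 lay in an intron and 6 overlapped an exon, against 57.1%, 30.4% and 12.5% of the piRNAs tested. 21ur-3363 (IV:14462876-14462896, minus strand) lies in an intron of nspg-9, 21ur-2290 (IV:16231442-16231462, minus strand) in an intron of hpa-1 and 21ur-6009 (IV:14667793-14667813, plus strand) in an intron of anoh-2. 21ur-9780 (IV:15165706-15165726, plus strand) overlaps the hairpin annotated as cel-mir-78 on the same strand, so its reads cannot be told from those of that microRNA entry. Coordinates of 95 members equal the annotation, and the other 5, whose names have the prefix novel_21ur, are not in it.

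The members were richer in G than other piRNAs. The mean GC content of the 21 bases was 41.7 ± 7.81% (SD over 100 members), against 34.8 ± 8.85% for the 8512 piRNAs tested. The mirrored list had 35.2 ± 6.31%. G stood at 24.2% of bases in members against 19.9% in the mirrored list and 17.7% in all tested, and C at 17.52% against 15.3% and 17.1%, while A made up 26.1% of bases in the mirrored list and 25.6% in all tested and less in members, at 20%. T at base 1 was near universal in each, in 99 and 97 of 100 piRNAs of the lists and in 98.1% of all tested. These are descriptions of lists chosen on abundance and age, and no test was made.

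In the libraries that chose them, the leading members rose in every library. 21ur-3363 had 1347, 1321 and 1411 CPM in set A and 1744, 1297 and 1265 CPM in set B at 48 h, and 6598, 5861 and 6463 CPM and 6355, 7724 and 6987 CPM at 72 h. The lowest 72 h library was above the highest 48 h library. 21ur-5410 ranged from 1109 CPM to 1804 CPM with a median of 1193 CPM at 48 h, and from 4602 CPM to 7084 CPM with a median of 6194 CPM at 72 h. 21ur-3975, 21ur-6009 and 21ur-2290 had 72 h medians of 6261 CPM, 5389 CPM and 5273 CPM. Neighbours in this order overlapped at 72 h. 21ur-3363 and 21ur-6009, which are not neighbours, did not: every library had more 21ur-3363 (lowest 5861 CPM) than the highest value of 21ur-6009, 5649 CPM. 21ur-119, 21ur-3788 and 21ur-5323 had lower 72 h medians, of 3665 CPM, 3515 CPM and 2853 CPM.

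**Figure D1:**
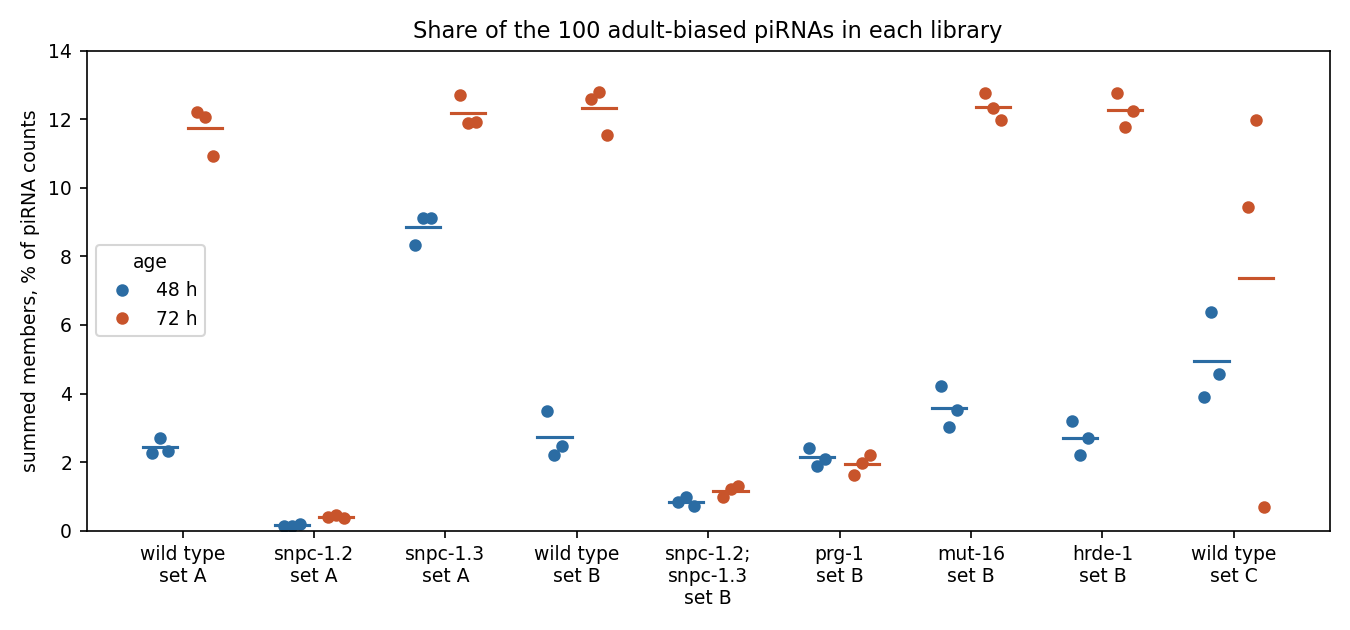
Summed level of the 100 members as a percent of the piRNA counts of each library (vertical axis), by genotype and library set (horizontal axis). Each point is 1 library, bars are means of 3, blue is 48 h and orange 72 h. snpc-1.3 at 48 h lies between 8.32% and 9.12%, above all wild-type libraries at 48 h, and all snpc-1.2 libraries lie below 0.5%.

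Set C offers wild type that the choice did not use. The members together made up 3.91%, 6.37% and 4.57% of piRNA counts at 48 h, and 9.45%, 12.0% and 0.686% at 72 h, the last being the shallow replicate 3, with 68 member counts. Outside that library the ages did not overlap. With all 6 libraries, 87 of 100 members were called higher at 72 h and none (0) lower (edgeR quasi-likelihood F test, Benjamini-Hochberg adjusted p below 0.05), where 15.4% of all piRNAs tested were called higher. The median member log2 fold change was 1.15, against -0.15 over all tested. With replicate 3 included the libraries of the 2 ages did not overlap in 2 members, against 27.6% of all tested. That overlap count is not given without replicate 3. Without replicate 3 at 72 h, 98 members were called with a median of 1.28, without replicate 2 at 72 h 56 were, and a fit of the 6 libraries alone called 13 of 95 tested. Shares over all tested are not given for these fits. novel_21ur-0997 changed most, with 21.7, 32.5 and 42.4 CPM at 48 h and 103, 148 and 404 CPM at 72 h, and its log2 fold change was 2.12 (SE 0.37, edgeR adjusted p 2.2e-06). The last of these levels, 404 CPM, rests on 4 counts.

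Wild type of set C differed from that of sets A and B at 48 h, with no overlap between libraries in 58 of 100 members. There the ratio of the set C mean to the mean of sets A and B ran from 0.0741 for 21ur-5367 (5.00 CPM against 67.5 CPM) to 11.2 for 21ur-8611 (568 CPM against 50.6 CPM). It was at least 4 in 14 members and at most 1/4 in 6. Between set A and set B the ratio ran from 0.478 to 1.33 at 48 h, and libraries did not overlap in 9 members at 48 h and 14 at 72 h. These set counts cover the members only, so they do not show whether piRNAs at large differed between the sets. Mutants were compared with wild type of their own set.

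Without snpc-1.2 the members were nearly absent at both ages. They summed to 0.146%, 0.122% and 0.197% of piRNA counts at 48 h, against 2.27%, 2.71% and 2.33% in wild type of set A. At 72 h they summed to 0.403%, 0.456% and 0.367%, against 12.2%, 12.1% and 10.9%. Without novel_21ur-0997 the snpc-1.2 means fell from 0.155% to 0.152% at 48 h and from 0.409% to 0.216% at 72 h. The summed member count at 72 h was 746 ± 229 (SD, n = 3) against 85832 ± 24135, which was 0.869% of the wild-type mean. At 48 h it was 1053 ± 208 against 26237 ± 4759. The wild-type libraries of this comparison also took part in choosing the members.

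At 48 h 98 of 100 members were called lower in snpc-1.2, where 26.1% of all tested were, and at 72 h 99 were called lower, where 30.6% of all tested were called lower and 49.9% higher. Members were chosen for high levels at 72 h in these wild-type libraries among others, where a fall can be called more easily. These shares therefore do not compare like with like, and the part of abundance was not tested. The median log2 fold change of members was -5.99 at 48 h and -7.41 at 72 h, against 0.14 and 1.51 over all tested. Since 22 and 23 members had no count in any of the 3 mutant libraries, these medians are no bounds. With a group total of at least 3 counts put in for each, they were -5.44 and -6.15. On that scale the median member was at 2.30% of its wild-type level at 48 h and 1.41% at 72 h, which are upper limits for members without a count. With the floor applied, 19 members were below 1% of wild type at 48 h and 35 at 72 h, and 83 and 96 were below 10%.

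The most abundant member, 21ur-3363, had 55.3, 28.5 and 50.2 CPM in snpc-1.2 at 48 h and 149, 75.3 and 69.1 CPM at 72 h. All 6 values lay below every wild-type library of set A. Its log2 fold change was -4.92 at 48 h (SE 0.34, edgeR adjusted p 1.5e-23) and -6.05 at 72 h (SE 0.36, edgeR adjusted p 5.0e-27). 21ur-5362 had no count in any of the 3 libraries at 72 h, against 517, 729 and 584 counts in wild type, so it was at least 157-fold lower when 3 counts over the group are taken as the floor. 21ur-2108, whose sequence is listed at a pair of loci, was at least 154-fold lower at 72 h. At 48 h 21ur-1589 and 21ur-4537 had no count in snpc-1.2 and were at least 156-fold and 129-fold lower.

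Some members kept more. At 48 h 15 were at 10% to 50% of their wild-type level and 2 at 50% or more, and at 72 h 3 and 1 were. 21ur-2290 had 251, 224 and 363 CPM at 48 h in snpc-1.2 against 1068, 1158 and 1229 CPM in wild type. This was 23.9% of wild type (log2 fold change -2.05, SE 0.37, edgeR adjusted p 9.1e-06), and at 72 h it was 5.54%. 21ur-5323 kept 20.8% at 48 h and 5.20% at 72 h, and 21ur-4319, with its overlapping locus, kept 33.7% and 12.7%. The pair of members that missed the call at 48 h were 21ur-3291 and novel_21ur-0997. 21ur-3291 had 32.7, 19.5 and 60.3 CPM against 60.9, 67.6 and 88.8 CPM (log2 fold change -0.97, SE 0.41, edgeR adjusted p 0.073). Of the members of this paragraph 21ur-4319 and its overlapping locus were picked out after their values were seen.

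**Figure D2:**
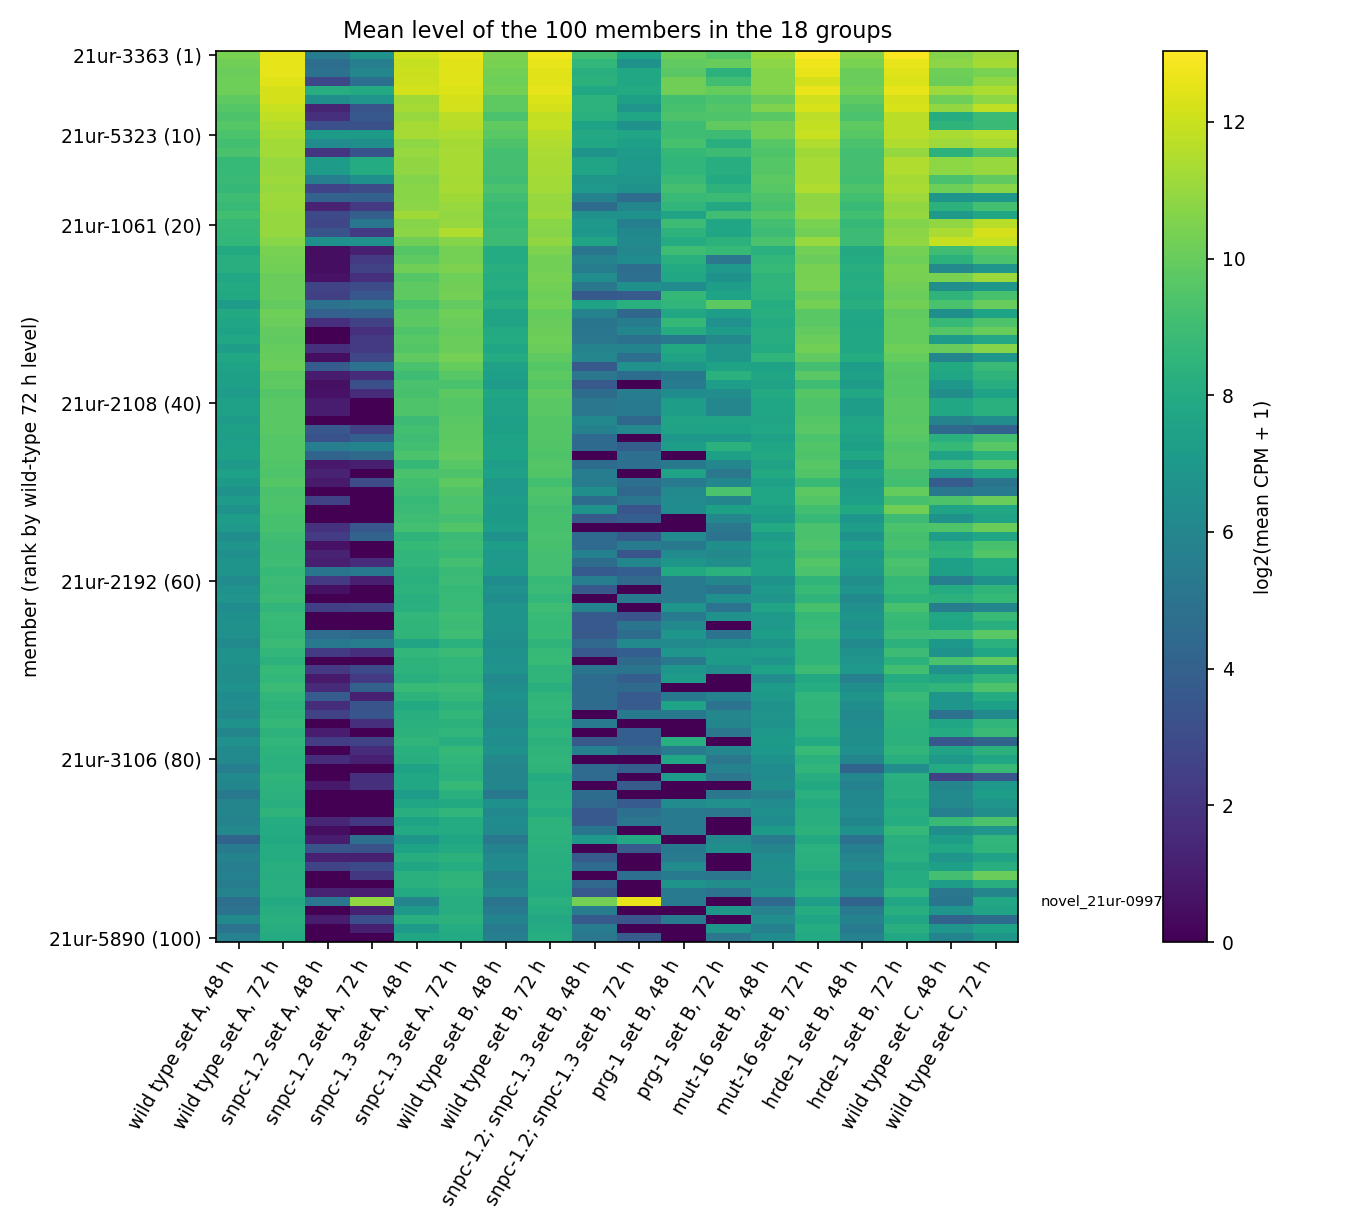
Mean level of each member, as log2(mean CPM + 1), in each of 18 groups of 3 libraries. Rows are the 100 members in order of their wild-type 72 h level and columns are genotype, set and age. The pair of snpc-1.2 columns is dark in nearly every row, and the row of novel_21ur-0997 is bright in snpc-1.2 at 72 h and in the mutant of both genes.

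Without snpc-1.3 the members were higher at 48 h and near wild type at 72 h. At 48 h they summed to 8.32%, 9.12% and 9.11% of piRNA counts, all above the highest wild-type library of set A at that age, 2.71%. In counts, the sum was 64994 ± 5260 (SD, n = 3) against 26237 ± 4759. At 72 h the shares were 12.7%, 11.9% and 11.9%, and overlapped with the 12.2%, 12.1% and 10.9% of wild type.

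At 48 h all 100 members were called higher in snpc-1.3, where 30.8% of all tested were, with a median log2 fold change of 1.93 against -0.19 over all tested. The wild-type libraries of this comparison also took part in choosing the members, whose 48 h mean had to be low against their 72 h mean. The quartiles of the members were 1.73 and 2.08, and the range was from 1.11 to 2.84. 21ur-2689 had 345, 263 and 319 CPM against 33.3, 55.6 and 39.3 CPM, the largest change (log2 fold change 2.84, SE 0.30, edgeR adjusted p 2.5e-14). 21ur-8966 had 97.7, 114 and 130 CPM against 19.98, 10.3 and 22.2 CPM (log2 fold change 2.70, SE 0.38, edgeR adjusted p 1.8e-09). 21ur-3363 had 3795, 4670 and 4636 CPM, between the 48 h and the 72 h libraries of wild type of sets A and B (log2 fold change against 48 h wild type 1.68, SE 0.28, edgeR adjusted p 9.4e-08). novel_21ur-0997 changed least (log2 fold change 1.11, SE 0.32, edgeR adjusted p 0.0013).

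At 72 h none (0) of the members was called by edgeR in snpc-1.3, where 11.5% of all tested were called in either direction, and DESeq2 called 0 as well. At an unadjusted edgeR p below 0.05 there was 1 member, and 1625 of the 8512 piRNAs tested. The median member log2 fold change was 0.04, and the members ranged from -0.56 to 0.49. A fit of the compared groups alone called 2, with 1 higher and 1 lower, and its share over all tested is not given.

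The snpc-1.2 and snpc-1.3 mutants were then set against each other, in libraries that took no part in choosing the members. At 48 h all 100 members were called lower in snpc-1.2 than in snpc-1.3, where 34.5% of all tested were lower. At 72 h 99 were lower and 1, novel_21ur-0997, was higher (log2 fold change 2.76, and 0.57 and not called with TMM factors), where 31.0% of all tested were lower and 52.1% higher. The 2.76 of the higher member lay below the upper quartile over all tested at 72 h, 4.49. The median log2 fold change of members was -8.08 at 48 h and -7.51 at 72 h, or -7.51 and -6.19 with 3 counts put in as a floor. 21ur-1589 and 21ur-4537 at 48 h, with 1758 and 1511 summed counts in snpc-1.3, were at least 548-fold and 471-fold lower in snpc-1.2. 21ur-5362 and 21ur-2108 at 72 h were at least 157-fold and 146-fold lower.

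Loss of both genes left few piRNA counts, from 16101 to 34162 per library. Summed member counts were 242, 160 and 204 at 48 h, against 32643, 17702 and 21330 in wild type of set B, and 236, 414 and 353 at 72 h, against 88129, 125207 and 87110. As a share of the piRNA counts that remained, the members made up 0.822%, 0.994% and 0.725% at 48 h and 0.972%, 1.21% and 1.3% at 72 h. Without novel_21ur-0997 these means fell from 0.847% to 0.719% at 48 h and from 1.16% to 0.525% at 72 h.

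In the mutant of both genes 64 members were called lower and 1 higher at 48 h, where 20.4% and 12.5% of all tested were, and 98 lower and 1 higher at 72 h, where 16.4% and 17.2% were. The wild-type libraries of set B also took part in choosing the members, by high levels at 72 h, where a fall can be called at this depth. The member that was higher was novel_21ur-0997 at both ages, and 21ur-8966 was the one not called at 72 h. The count at 48 h rested in part on depth and on 1 library: without replicate 3 of the mutant it was 34 lower and 1 higher. The shares of all tested without that library are not given. Members at 0 in all 3 mutant libraries numbered 10 at 48 h and 17 at 72 h. The median log2 fold change was -2.21 at 48 h and -4.77 at 72 h, or -1.46 and -4.02 with 3 counts put in as a floor. Over all tested it was -3.01 and -2.38, or 0.97 and 1.85 with the floor, so without the floor the members' median at 48 h was the higher one. 21ur-3363 had 16, 10 and 13 counts at 48 h and 4, 6 and 6 at 72 h, which was 36.6% and 2.63% of its wild-type CPM (log2 fold changes -1.43, with SE 0.36 and edgeR adjusted p 8.0e-04, and -5.23, with SE 0.41 and edgeR adjusted p 1.4e-19). 21ur-3967 and 21ur-3149 had no count at 72 h and were at least 22.4-fold and 21.4-fold lower. At 48 h the floor was less deep, and 21ur-4817 and 21ur-1676, also without a count, were at least 4.63-fold and 3.86-fold lower.

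prg-1 mutants had the fewest piRNA counts. The members had 199, 60 and 186 counts at 48 h and 99, 188 and 240 at 72 h, and the sum at 72 h was 0.175% of the wild-type mean. As a share of the counts left, they made up 2.42%, 1.89% and 2.09% at 48 h and 1.63%, 1.96% and 2.21% at 72 h. At 48 h this overlapped with the 3.48%, 2.22% and 2.46% of wild type, and at 72 h it lay below the 12.6%, 12.8% and 11.6% of wild type in every library. The floor of 3 counts over the prg-1 libraries at 48 h was 148 CPM, and the median member was at 147 CPM in wild type of that set and age, so a fall of a typical member without a count could not be measured there.

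At 48 h none (0) of the members was called by edgeR in prg-1, where 10.1% of all tested were called in either direction. At an unadjusted edgeR p below 0.05 there were 4 members, and 1502 of the 8512 piRNAs tested. DESeq2 called 34 members lower, and its share over all tested is not given. At 72 h 72 members were called lower, where 6.86% of all tested were. Members were chosen for high wild-type levels at 72 h, where a fall can be called at this depth. These shares therefore do not compare like with like, and the part of abundance was not tested. The median log2 fold change at 72 h was -2.93, or -2.06 with the floor, while at 48 h it was -0.40, or 0.32 with the floor, so its sign there depended on the members with few or no counts. Over all tested the medians were -4.15 at 72 h and -5.21 at 48 h, or 3.15 and 2.68 with the floor, and changed sign at both ages. 21ur-3363 had 5, 5 and 11 counts at 72 h against 4451, 7550 and 5267 (11.2% of its wild-type CPM, log2 fold change -3.15, SE 0.39, edgeR adjusted p 2.1e-10). 21ur-7081 and 21ur-4800 had no count at 72 h and were at least 3.85-fold and 3.32-fold lower. These values are shares of the small pool that remained: in counts, prg-1 libraries at 72 h had 240 member counts or fewer where wild-type libraries had 87110 or more.

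mut-16 and hrde-1 mutants kept the members. In mut-16 they summed to 4.23%, 3.02% and 3.52% of piRNA counts at 48 h and 12.8%, 12.3% and 12.0% at 72 h, and in hrde-1 to 3.19%, 2.20% and 2.71%, and 12.8%, 11.8% and 12.2%. All of these groups overlapped with wild type of set B. Summed member counts in mut-16 stood at 183% (48 h) and 238% (72 h) of wild type, and its piRNA totals were larger too.

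In mut-16 at 48 h none (0) of the members was called by edgeR or DESeq2, where edgeR called 3.9% of all tested in either direction. Of the members 95 of 100 had a positive log2 fold change, and the median was 0.37 against -0.01 over all tested. At an unadjusted edgeR p below 0.05 there were 15 members, and 1015 of the 8512 piRNAs tested. The wild-type libraries of this comparison also took part in choosing the members, whose 48 h mean had to be low against their 72 h mean. With the replicate number as a block 5 members were called higher, and with the compared groups alone 4. The shares of all tested called in those fits are not given. At 72 h 1 member was called lower, novel_21ur-0997, where 6.9% of all tested were lower. It had 149, 180 and 146 CPM against 257, 361 and 297 CPM (log2 fold change -0.95, SE 0.26, edgeR adjusted p 0.0084), and the groups did not overlap. The call was lost with TMM factors, and without N2 replicate 2 or mut-16 replicate 1 of set B at 72 h.

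In hrde-1 1 member was called lower at 48 h, where 0.505% of all tested were, and at 72 h 1 was lower and 1 higher, where 0.916% and 0.411% of all tested were. The wild-type libraries of this comparison also took part in choosing the members, by their levels at both ages. 21ur-7530 was the member called lower at both ages. It had 26.2, 11.5 and 14.4 CPM against 79.9, 57.6 and 46.2 CPM at 48 h (log2 fold change -1.76, SE 0.42, edgeR adjusted p 0.020) and 138, 30.5 and 83.8 CPM against 414, 361 and 297 CPM at 72 h (log2 fold change -2.12, SE 0.35, edgeR adjusted p 1.6e-04). The 72 h call held in all 11 alternatives run, and the 48 h call in 5 of 11. 21ur-1847 was higher at 72 h, with 1377, 1290 and 899 CPM against 627, 659 and 462 CPM (log2 fold change 1.03, SE 0.28, edgeR adjusted p 0.037), a call that held in 4 of 11 alternatives. With the replicate block, which the pairing check of this comparison calls for, 2 members were called at 48 h: 21ur-7530 (edgeR adjusted p 5.9e-04) and 21ur-1847, which was higher (log2 fold change 0.87, SE 0.24, edgeR adjusted p 0.039). The share of all tested called in that fit is not given.

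**Figure D3:**
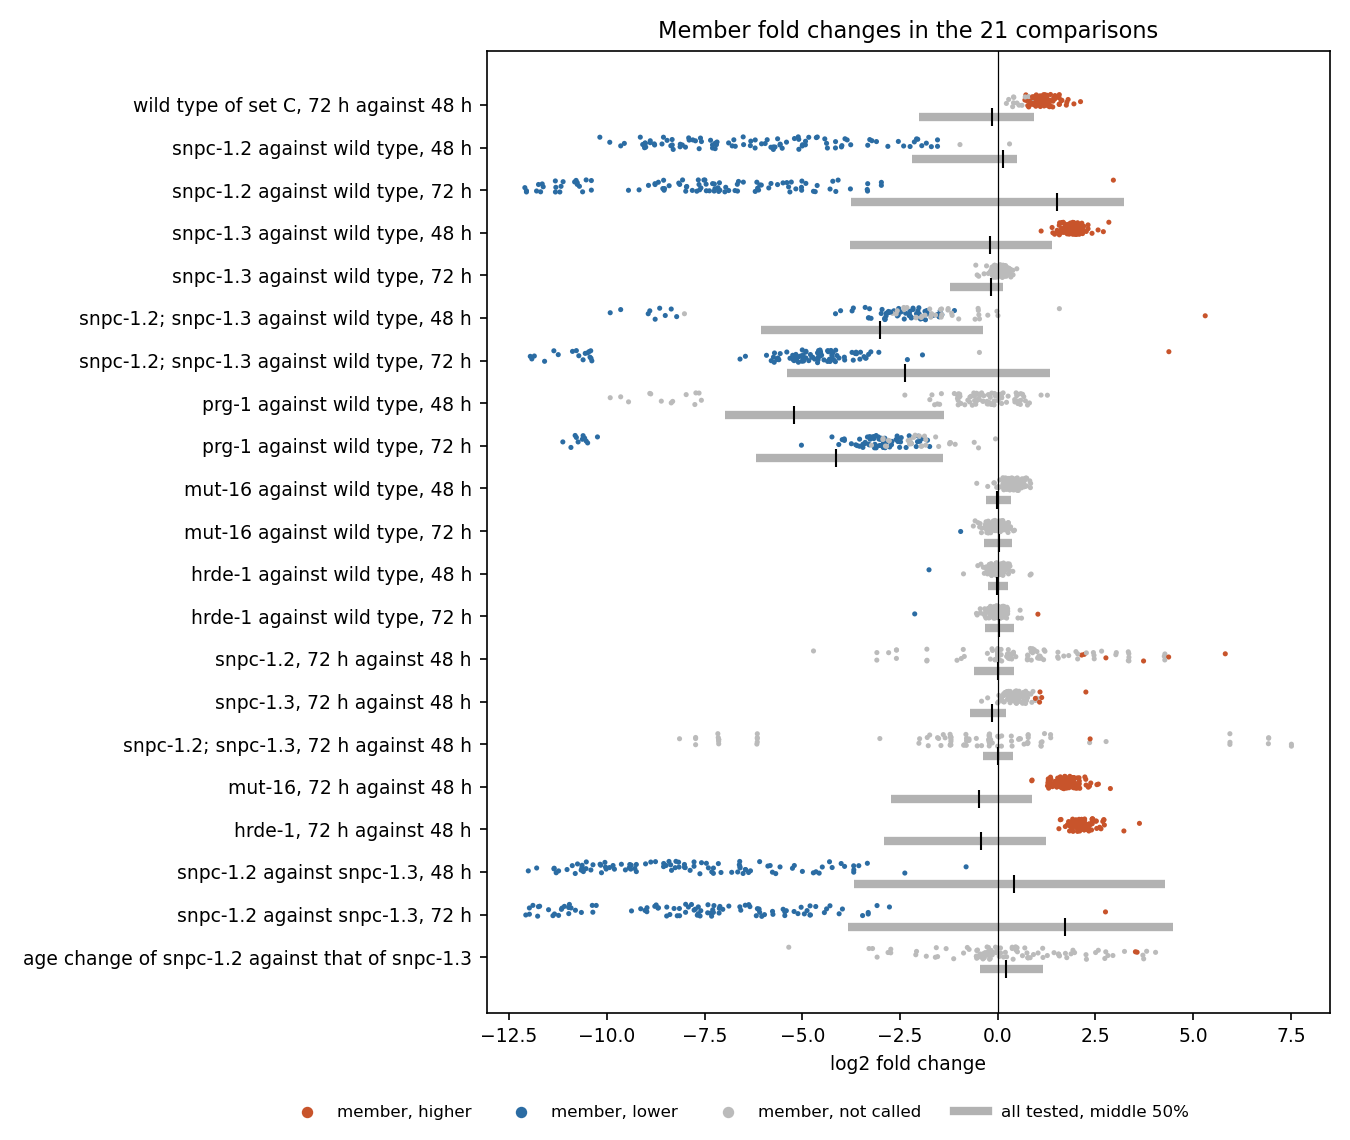
Log2 fold change of each of the 100 members (points) in the 21 comparisons (vertical axis), coloured by edgeR call. Grey bars give the middle 50% of all 8512 piRNAs tested and black ticks their median. Against wild type all members but novel_21ur-0997 lie to the left of 0 in snpc-1.2 at both ages, and all 100 lie to the right in snpc-1.3 at 48 h.

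The change with age was tested in each mutant except prg-1, in libraries that took no part in choosing the members. In hrde-1 all 100 members were called higher at 72 h than at 48 h, where 29.0% of all tested were, with a median log2 fold change of 2.13 and a range from 1.57 to 3.63. In mut-16 all 100 were called higher, where 23.0% of all tested were, with a median of 1.72 and a range from 0.87 to 2.88. The medians over all tested were -0.43 and -0.49. In both mutants every library at 72 h had a higher summed share than every library at 48 h. novel_21ur-0997 and 21ur-8966 changed most in both: in hrde-1 by 3.63 (SE 0.33, edgeR adjusted p 8.4e-17) and by 3.23 (SE 0.36, edgeR adjusted p 1.0e-12), and in mut-16 by 2.88 (SE 0.30, edgeR adjusted p 5.7e-14) and by 2.58 (SE 0.33, edgeR adjusted p 2.2e-10).

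In snpc-1.3 the change with age was small. The summed share went from 8.85 ± 0.459% to 12.2 ± 0.471% (SD, n = 3 each). The median log2 fold change was 0.46 against -0.14 over all tested, 97 of 100 members had a positive value, and in 67 the 3 libraries of each age did not overlap, as in 23.8% of all tested. edgeR called 5 members higher, where 1.25% of all tested were: novel_21ur-0997, 21ur-5729, 21ur-528, and the overlapping loci 21ur-2983 and novel_21ur-1408. 21ur-5729 had 159, 121 and 146 CPM at 48 h and 387, 335 and 210 CPM at 72 h (log2 fold change 1.13, SE 0.29, edgeR adjusted p 0.013). A fit of these 6 libraries alone called 47 members and the replicate block 16, and the shares of all tested called in those fits are not given. Leaving out 1 library gave 1 to 4 calls, with 1 to 3 without replicate 1 or 2 at either age.

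In snpc-1.2 edgeR called 6 members higher at 72 h, where 8.98% of all tested were: novel_21ur-0997, 21ur-8966, 21ur-3967, 21ur-913, 21ur-1061 and 21ur-6009. Apart from novel_21ur-0997, none of these had more than 16 counts over the 3 libraries at 72 h. 21ur-6009, one of the 10 leading members, had 12 counts in all at 48 h and 15 at 72 h (log2 fold change 2.15, SE 0.69, edgeR adjusted p 0.024), while in wild type of set A it had 3776 and 11810. TMM factors left 2 members higher and 1 lower, and without replicate 1 at 72 h there were 2 calls, and without replicate 2 at 48 h 3. For these fits the shares over all tested are not given. In the mutant of both genes 1 member was called higher with age, novel_21ur-0997, where 0.341% of all tested were.

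novel_21ur-0997 did not follow the other members. It lies at IV:14358034-14358054 on the minus strand, in no annotated gene, with 71 other listed piRNAs within 10 kb, against a median of 63.5 for the members. In wild type it had 20.9, 34.2 and 26.2 CPM in set A and 40.5, 31.3 and 20.8 CPM in set B at 48 h, and 211, 241 and 286 CPM and 257, 361 and 297 CPM at 72 h. In snpc-1.2 it had 21.4, 33.0 and 48.5 CPM at 48 h, within the wild-type spread (log2 fold change 0.30, SE 0.34, edgeR adjusted p 0.53), and 1838, 2499 and 1428 CPM at 72 h, all above wild type (log2 fold change 2.96, SE 0.28, edgeR adjusted p 1.2e-16). Its counts there were 284, 332 and 393, against 129, 227 and 181 in wild type, although the libraries had fewer piRNA counts. Relative to the median of all piRNAs tested the change was 1.45 on the log2 scale, and 1.38 with TMM factors, under which the change itself was 0.95. Without TMM factors its 2.96 lay below the upper quartile over all tested, 3.24, and 49.9% of all tested were called higher.

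In the mutant of both genes novel_21ur-0997 had 952, 1739 and 1137 CPM at 48 h from 28, 28 and 32 counts, and 5521, 7289 and 6244 CPM at 72 h from 134, 249 and 170 counts. Every value lay above wild type of set B. The log2 fold change was 5.31 at 48 h (SE 0.36, edgeR adjusted p 5.7e-23) and 4.38 at 72 h (SE 0.29, edgeR adjusted p 3.7e-23), and 3.91 and 2.36 with TMM factors. In counts, wild type had 38, 25 and 18 at 48 h and 180, 353 and 224 at 72 h, which overlapped with those of the mutant, and the mutant's piRNA totals were smaller. In prg-1 it had 1, 0 and 0 counts at 48 h and none at 72 h, where it was called lower (edgeR adjusted p 0.0036). It rose with age in the mutant of both genes (log2 fold change 2.36, SE 0.30, edgeR adjusted p 7.0e-08), in snpc-1.3 (2.26, SE 0.29, edgeR adjusted p 7.3e-08) and in snpc-1.2 (5.82, SE 0.33, edgeR adjusted p 3.3e-27).

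The age change of snpc-1.2 was compared with that of snpc-1.3 in 1 test of the difference. 2 members were called higher, novel_21ur-0997 and 21ur-8966, where 3.74% of all tested were. The median difference over the members was -0.02, against 0.22 over all tested. For novel_21ur-0997 the difference was 3.57 (SE 0.42, edgeR adjusted p 3.0e-10), called in all 17 alternatives. For 21ur-8966 it was 3.52 (SE 1.11, edgeR adjusted p 0.033), called in 9 of 17.

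21ur-8966 (IV:14531333-14531353, plus strand) overlaps an exon of an annotated pseudogene on the other strand. In snpc-1.2 it had 0, 2 and 0 counts at 48 h and 7, 4 and 2 at 72 h, far below wild type. In the mutant of both genes it had 2, 4 and 2 counts at 48 h and 5, 12 and 4 at 72 h. As CPM these were 68.0, 248 and 71.1 at 48 h, against 51.2, 23.8 and 34.7 CPM in wild type, and 206, 351 and 147 at 72 h, against 311, 385 and 309 CPM, and neither difference was called (edgeR adjusted p 0.10 and 0.48). A share of wild type size in that mutant therefore rests on 8 and 21 counts.

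**Figure D4:**
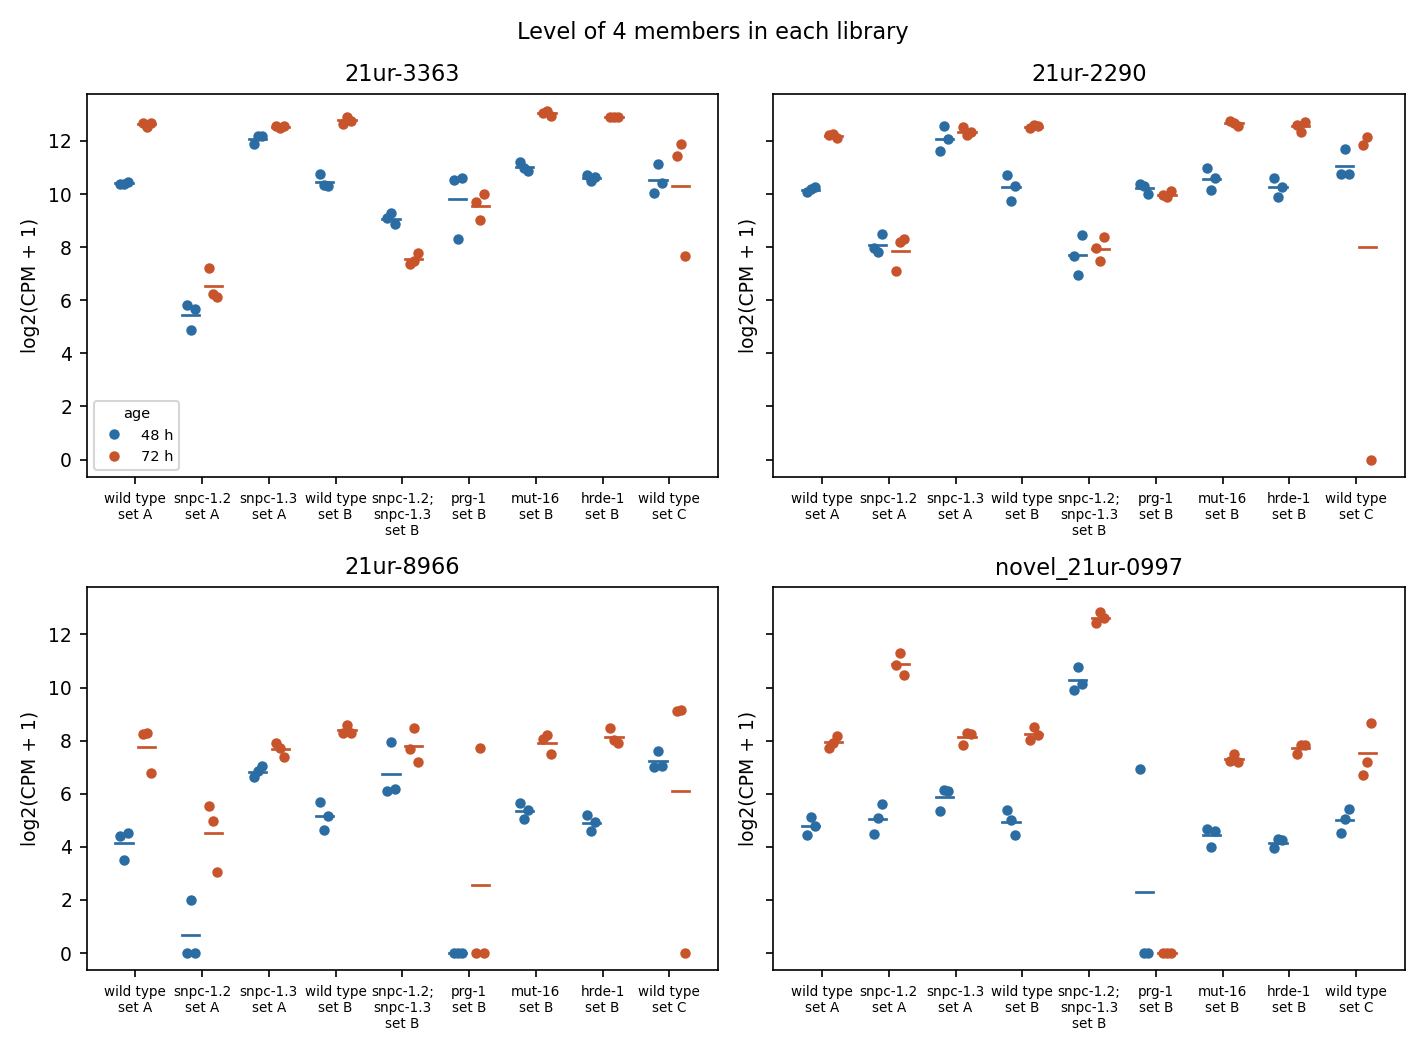
Level of 4 members in each library, as log2(CPM + 1), by genotype and set. Points are libraries, bars are means of 3 on that log scale, blue is 48 h and orange 72 h. 21ur-3363 and 21ur-2290 are low in snpc-1.2 and in the mutant of both genes, while novel_21ur-0997 is above wild type in both at 72 h.

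Likeness of the members over all groups was described by the Pearson correlation of each member's mean log2(CPM + 1) over the 18 groups with the median profile of the members, groups that share libraries with the choice of members. It was 0.99 for the members most alike and 0.79 or higher for all but 3. The lowest were novel_21ur-0997 (r = -0.09), 21ur-8966 (r = 0.64) and 21ur-3291 (r = 0.77). The 5 tested piRNAs whose profile was most like that of novel_21ur-0997, looked up after its values were seen, had r from 0.948 to 0.970, all have the prefix novel_21ur, and none is a member. They include novel_21ur-1751 on X, novel_21ur-0301 on II and novel_21ur-0888 and novel_21ur-0653 on IV outside both regions named above, with wild-type 72 h means of 33.7, 29.4, 16.4 and 7.86 CPM.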

How the data were processed

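Small RNA libraries of 54 samples in 18 groups were analysed. A further 12 samples were not analysed here, and 12 columns of the deposited tables that match no sample were not used. The deposited count table gives whole-number counts per piRNA and library. Trimmomatic 0.39, Bowtie 1.1.1, HTSeq and edgeR with genome build WBcel235 are named, per the submitters' processing notes, without parameters. How reads of overlapping or repeated loci were counted is not given in the sources used here. A second deposited table gave coordinates and sequences of 13211 piRNAs, and its log2 values were not used. Genes at each locus were looked up in the Ensembl annotation of WBcel235.

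The members and lists were chosen with earlier results of these data known. CPM is the count divided by the summed piRNA counts of the library, since library read totals were not used. Tests used edgeR 4.0.16 (R 4.3.3, quasi-likelihood F test) on the counts, with 1 fit of 54 libraries and 1 mean per group, summed counts as library size, and the low-count filter of filterByExpr at a minimum count of 10 and total of 15. It left 8512 piRNAs, the 100 members among them. p-values were adjusted over all 8512 by Benjamini-Hochberg, and called below 0.05. Standard errors are those of the log2 fold change without shrinkage. Where a group had no count, folds are bounds at 3 counts over the group, which cover counting error only. The fit was also run on simulated counts with the same spread for every piRNA and changes only in piRNAs above a count limit. Its outcome is not given here and does not bear on members with few or no counts.

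Mutants were compared with wild type of the same set and age, ages within genotypes, and snpc-1.2 with snpc-1.3. The wild-type libraries of sets A and B also chose the members. Alternatives were TMM factors, DESeq2 1.42.0, no filter, compared groups alone, a replicate block, each library left out, members chosen from the other set, and, added after seeing the data, 1 member per group of overlapping loci. Replicate numbers were checked for pairing by correlating deviations from group means over all tested piRNAs. In 1 of 20 comparisons, hrde-1 at 48 h, every correlation was over 0.1 (0.169, 0.182 and 0.108), and the block result is printed there. No 2 libraries had identical counts.

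Named piRNAs were the 10 leading members, for each comparison the 2 called members with the largest change in each direction among those without overlap between libraries, the members and other piRNAs nearest the limits of the rule, and the 3 with the lowest profile correlation. Others were chosen after their values were seen.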

Additional observations from a re-analysis of the deposited data

Results flagged for a closer look

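The change with age was called higher in snpc-1.2 than in snpc-1.3 for 2 members, in a test of the difference itself. Of all piRNAs tested 3.74% were called higher there. For novel_21ur-0997 the age change in snpc-1.2 exceeded that in snpc-1.3 by 3.57 on the log2 scale (edgeR adjusted p 3.0e-10). All 3 snpc-1.2 libraries at 72 h had 284 counts or more, and all 3 at 48 h had 29 or fewer. For 21ur-8966 the difference was 3.52 (edgeR adjusted p 0.033), and it rested on 2 counts at 48 h and 13 at 72 h in snpc-1.2. The 21ur-8966 call held in 9 of 17 alternatives and was lost with TMM factors and with DESeq2. The summed piRNA counts of snpc-1.2 averaged 686736 ± 100735 (SD, n = 3) at 48 h and, at 72 h, 187500 ± 76692 (SD, n = 3), and the part of this fall in the differences was not tested.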

How the results depend on the processing

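Counts of called members are given as in the report first, then under the alternative. Shares over all tested are given for the main fit only, so these shifts are not set against those of other piRNAs. With TMM factors prg-1 at 48 h went from 0 to 31, mut-16 at 72 h from 1 to 0, hrde-1 at 48 h from 1 to 0 and at 72 h from 2 to 1, the age change of snpc-1.2 from 6 to 3 and the difference of age changes from 2 to 1. With DESeq2 prg-1 at 48 h gave 34, hrde-1 0 at 48 h and 1 at 72 h, the age change of snpc-1.3 3 and the difference of age changes 1. Without a filter the age change of snpc-1.3 gave 8. With the compared groups alone the age change gave 13 in set C wild type, 3 in snpc-1.2 (of 17 tested), 47 in snpc-1.3 and 2 in the mutant of both genes (of 3 tested), snpc-1.3 at 72 h gave 2, prg-1 at 48 h 1, mut-16 4 at 48 h and 2 at 72 h, and the difference of age changes 7. The replicate block gave 5 for mut-16 at 48 h, 2 for hrde-1 at 48 h and 16 for the age change of snpc-1.3, and moved no other count of the 21 by over 1.5 times. Every library correlated best with the one of its own number in 8 of 20 comparisons, a hint from the data and not the design. Members chosen from set A alone gave 0 for mut-16 at 72 h. The cause of these differences was not tested, beyond the smaller number of members tested where given.

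Leaving out 1 library gave 56 to 98 for set C wild type, 35 to 66 for the mutant of both genes at 48 h, 0 to 2 for mut-16 at 48 h and 0 to 1 at 72 h, 0 to 1 for hrde-1 at 48 h and 1 to 2 at 72 h, 2 to 5 for the age change of snpc-1.2, 1 to 4 for that of snpc-1.3 and 1 to 3 for their difference. In the other 12 comparisons no count moved by over 1.5 times, and prg-1 at 72 h ranged from 52 to 76. For mut-16 at 48 h the 2 calls came without N2 replicate 1 of set B, and the hrde-1 call at 48 h was lost without N2 replicate 1 or 2 or hrde-1 replicate 2 or 3. No comparison was reversed under any alternative run, and with TMM factors 1 of the 3 members called in the age change of snpc-1.2 was lower. TMM factors moved the median log2 fold change of all tested from 1.51 to -0.42 in snpc-1.2 at 72 h and from 0.14 to -0.83 at 48 h, and the member medians from -7.41 to -9.15 and from -5.99 to -6.84. The members summed over those chosen from set A alone made up 12.8% of hrde-1 counts at 72 h and 0.518% of those of the mutant of both genes, against 12.3% and 1.16%; that list lacks novel_21ur-0997. The planned search for a motif before the loci was not run, since no genome sequence was used here. Depth limits the prg-1 libraries and those of the mutant of both genes most, where 60 to 66 members had 3 counts or fewer per group.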
